A study of Mus musculus with 6 samples.

Results

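The MHC class II pathway of mouse spleen cells was followed here through 10 genes, taken by name from the 31053 genes of a CITE-seq matrix, and through the single antibody against the surface protein, anti-I-A/I-E, 1 of 34 antibodies counted in the same cells. CITE-seq reads the RNA of each cell and, through barcoded antibodies, its surface proteins. The genes were H2-Aa, H2-Ab1 and H2-Eb1 for the chains that present peptide, Cd74 for the invariant chain, H2-DMa, H2-DMb1, H2-DMb2, H2-Oa and H2-Ob for the peptide editors, and Ciita for the transactivator. All 10 genes had UMIs, the molecules counted. Splenocytes came from C57BL/6 mice of 3 groups: young mice of 3 months given saline, aged mice of 20 months given saline, and aged mice of 20 months given PF4, the platelet chemokine, at 5 µg/mL. Each group received 8 tail vein injections of 100 µL over 24 days, and the cells of 5 mice were pooled per group, so that differences between mice of a group were not measured. The 6 deposited samples were an RNA and an antibody sample of each group. In the matrix the cells of the groups lie together, marked only by a suffix on the barcode, and neither the labels, the file headers nor the methods say which suffix is which group. The suffixes are therefore called libraries 1, 2 and 3, no group was compared, and the comparisons below are between cell classes within each library. Cells pooled without a map to their groups were counted as 1 sample, so no test was made between classes either, and the errors given cover counting alone.

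MHC class II molecules are paired α and β chains that carry peptides from engulfed material to the cell surface, where CD4 T cells read them. The invariant chain CD74 fills the new groove and guides the pair to the endosome, where cathepsins trim it to a short fragment. H2-DM, made of the H2-DMa chain with a β chain from H2-DMb1 or H2-DMb2, then exchanges that fragment for other peptides, and H2-O, made of H2-Oa and H2-Ob, binds H2-DM and restrains it. CIITA is the coactivator without which these genes are scarcely transcribed. It binds no DNA itself and joins a complex of RFX, CREB and NF-Y factors on the X and Y boxes in front of each gene. In spleen, B cells and dendritic cells carry class II constantly, monocytes and macrophages carry less, and mouse T cells do not make it. C57BL/6 mice carry a defective I-E α chain gene, so their surface class II is I-A, the product of H2-Aa and H2-Ab1.

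The H2 members lie together on chromosome 17. With H2-Eb2, a neighbouring β chain gene outside the set, they span 249 kb of GRCm38, from 34092340 to 34341412 in GENCODE vM21, in which all are protein-coding genes. Ciita lies apart, at chr16:10480059-10528418. The start sequences are shown because these genes are known to share a promoter layout and because H2-DMb1 and H2-DMb2, near neighbours with similar promoters, had opposite levels in B and dendritic cells. The RefSeq promoter table of the same build, with 250 bases before and 50 after each start, held 7 of the 10 genes. The stretches below run 5′ to 3′ on the gene's strand, and capitals mark GATTGG, the core of a Y box, and GCAAC or ATGATG, letters found in X boxes.
H2-Aa, chr17:34287853-34287932, - strand: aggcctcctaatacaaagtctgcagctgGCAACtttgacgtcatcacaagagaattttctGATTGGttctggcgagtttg
H2-Eb1, chr17:34305747-34305826, + strand: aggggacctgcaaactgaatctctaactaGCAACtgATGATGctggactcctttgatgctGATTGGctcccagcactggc
H2-Ob, chr17:34238787-34238866, + strand: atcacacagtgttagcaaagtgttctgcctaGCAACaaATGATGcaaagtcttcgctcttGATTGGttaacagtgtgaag
H2-DMb1, chr17:34153069-34153148, + strand: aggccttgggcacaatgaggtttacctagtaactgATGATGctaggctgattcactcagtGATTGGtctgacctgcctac
H2-DMb2, chr17:34145098-34145177, + strand: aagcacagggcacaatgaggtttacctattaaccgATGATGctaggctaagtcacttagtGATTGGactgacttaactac
Among the 7 genes, 6 held GCAAC or ATGATG within 60 bases ahead of GATTGG on the gene's strand, namely those above and H2-Oa, while H2-DMa did not in either of its listed promoters. This arrangement was held by 0.53% of all 32851 promoters listed. On either strand GATTGG alone was in 16.1% of promoters, GCAAC in 35.2% and ATGATG in 11.2%. The letters were chosen after these promoters had been read, so the matches describe them and show no binding. The H2-DMb1 and H2-DMb2 stretches were equal at 67 of 80 bases (83.8%), against 28.8% to 31.2% for the other pairs compared. Over the last 500 bases of their transcripts, where a 3′ library reads, the 2 genes shared no stretch of 91 bases and 0.851% and 0.84% of stretches of 31 bases, so they had few stretches in common to misplace a read.

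After limits of 300 to 5000 genes and at most 10% mitochondrial UMIs, 20161 of 29005 barcodes were kept, 4199, 7511 and 8451 by library, at a median of 3741, 3625 and 3765 RNA UMIs. Among barcode sequences 68 occurred under more than 1 suffix, and 43 of these were kept. Cells were clustered without the 10 genes, so their levels did not define the classes, and classes were named from other markers. All other genes could take part in the clustering, so their values by class are descriptions. The named classes included 5220 follicular-like, 1155 marginal zone-like, 854 B1-like and 351 transitional-like B cells, 136 plasma-like cells, 126 type 1 and 177 type 2 conventional dendritic-like cells, 54 migratory dendritic-like and 44 plasmacytoid-like cells, 248 classical and 180 non-classical monocyte-like cells, 63 macrophage-like and 5043 T-like cells. A further 4566 cells (22.65%) stayed unnamed. The follicular-like class was mixed, as described below with the B cell subsets and with the libraries. The marker lists were detected in the classes they name, 5 of 5 type 1 markers in type 1 and 5 of 5 type 2 markers in type 2. So were 5 of 5 in migratory and in plasmacytoid-like cells and 8 of 8 macrophage markers in macrophage-like cells. The same lists had named the classes, so this is no separate check. Xcr1, a type 1 marker, was at 0 UMIs in type 2 cells and Clec4a4, a type 2 marker, at 0 in type 1 cells. Other markers crossed over. Clec9a of the type 1 list had 30 UMIs, 26.8 CPM, in the 157 type 2 cells with 1% or more of their UMIs from the 10 genes. Cd209a of the type 2 list had 24 UMIs, 25.9 CPM, in the 111 such type 1 cells. The type 1 class of library 1 held 8 cells with more Ly6c2 than Xcr1 and Clec9a UMIs, at a median depth of 18777 UMIs and 2512 CPM of Ly6c2. Library 3 held 1 such cell. Ly6c2 is known from monocytes but was also at 388 CPM in the 123 plasma-like cells under that 1%. In the 15 type 1 cells under it, Mki67, a gene of dividing cells, was at 861 CPM, against 65.8 CPM in the other 111. Ly6c2 was at 2350 against 12.9 CPM there. What these cells are was not tested. Calls that rest on the type 1 class, and its main values, are therefore also given without the 9 cells rich in Ly6c2. Levels and ratios with no such remark include them. Levels are given as CPM, the UMIs of a gene in a class scaled to a total of 1000000 RNA UMIs, with exact Poisson 95% intervals that cover counting error only.

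The 10 genes together took 3.74% of all RNA UMIs in type 2 conventional dendritic-like cells, 3.37% in type 1 cells, 2.27% in follicular-like B cells and 2.26% in migratory dendritic-like cells. B1-like cells followed with 2.13%, marginal zone-like cells with 1.91%, transitional-like cells with 1.84% and plasmacytoid-like cells with 1.37%. Macrophage-like cells were at 0.856%, classical monocyte-like cells at 0.498%, plasma-like cells at 0.422% and non-classical monocyte-like cells at 0.322%. Without the 9 cells rich in Ly6c2 type 1 cells were at 3.90%, and by library at 3.77%, 4.09% and 3.83% in place of 2.28%, 4.09% and 3.80%. T-like cells, which should lack these transcripts, gave 0.0409%, 0.0645% and 0.0743% in libraries 1, 2 and 3. This is the background against which low levels are read. H2-Aa UMIs were found in 35.1% of T-like cells at a median depth of 5253 UMIs, and in 9.94% after thinning to 1000 UMIs, against 99.8% and 95.9% of follicular-like B cells at a median of 3321 UMIs.

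H2-Aa, the I-A α chain, was at 6571, 6769 and 7127 CPM in type 2 dendritic-like cells of libraries 1, 2 and 3. In type 1 cells it was at 3888, 7237 and 6647 CPM. Follicular-like B cells had 3810.1, 3589.8 and 3453 CPM of it, and classical monocyte-like cells 747, 862 and 674 CPM. Dendritic-like cells were thus above B cells for this gene, except type 1 cells in library 1, whose interval of 3689 to 4094 CPM held the follicular-like value. Without the 8 cells rich in Ly6c2 that type 1 value was 6464 CPM, above B cells too. The B cells in turn were far above the monocyte-like cells. H2-Ab1, the I-A β chain, was at 4119, 7727 and 7195 CPM in type 1, 6134, 5686 and 6169 CPM in type 2 and 2930, 2613 and 2543 CPM in follicular-like B cells. H2-Eb1, the I-E β chain, was at 3126, 6209 and 5926 CPM in type 1, 6042, 6101 and 6230.4 CPM in type 2 and 3143, 2820 and 2643 CPM in follicular-like B cells. Type 2 cells were above B cells for all 3 chains in each library, and type 1 cells in libraries 2 and 3, and in library 1 also once the 8 cells were left out, with H2-Ab1 at 6904.5 and H2-Eb1 at 5296.5 CPM. Against T-like cells, every one of the 10 genes was called higher in B-like cells, the B cell classes as one, where a call asks for a ratio of at least 1.5 in the same direction with intervals apart in every library with at least 10 cells of both classes. Of 6422 genes tested 12% were higher by this rule and 10.3% lower. The median log2 ratio was 5.02 over the members and 0.08 over all genes tested.

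**Figure D1:**
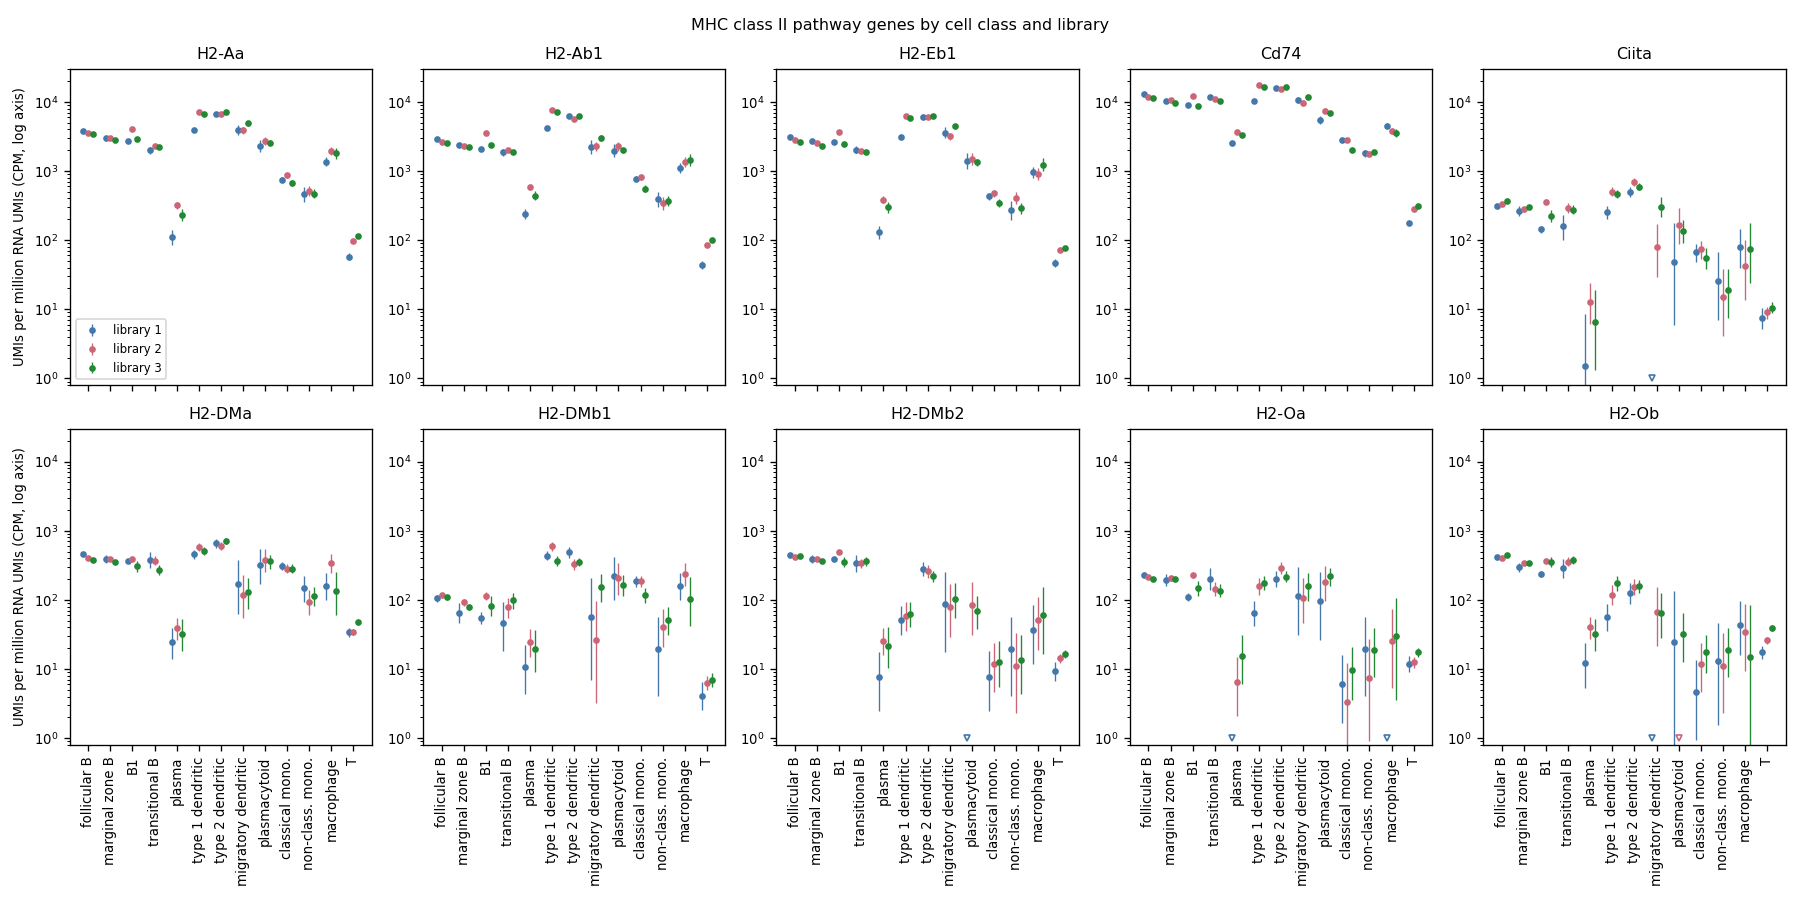
Level of each of the 10 genes (CPM of RNA UMIs, log axis) in 13 cell classes, with 1 point per library and bars for exact Poisson 95% intervals; open triangles at the bottom mark libraries with no UMI. The peptide-presenting chains and Cd74 are highest in dendritic-like and B-like classes and lowest in T-like cells, while H2-DMb2 and H2-Ob are highest in the B classes.

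Conventional dendritic-like cells, types 1 and 2 together, differed from B-like cells in a split way across the pathway. The presenting chains H2-Aa, H2-Ab1 and H2-Eb1 and the H2-DM β chain H2-DMb1 were called higher, and H2-DMb2 and H2-Ob were called lower. That is 4 higher and 2 lower of 10, against 14% and 11.1% of 6720 genes tested, and the median log2 ratio was 0.66 over the members and -0.09 over all genes. H2-DMb1 was at 459, 454.5 and 362 CPM in dendritic-like cells and at 82.1, 109 and 96.3 CPM in B-like cells, so that the libraries of the 2 classes lay far apart, with ratios of 5.59, 4.17 and 3.76. H2-DMb2 ran the other way, with 149, 165 and 155 CPM in dendritic-like and 418, 419.8 and 395 CPM in B-like cells and ratios of 0.356, 0.392 and 0.392. H2-Ob followed H2-DMb2, at 86.2, 137 and 163 CPM against 332, 383 and 394 CPM. H2-Ab1 had ratios of 1.94, 2.47 and 2.76, H2-Aa of 1.52, 1.99 and 2.20 and H2-Eb1 of 1.52, 2.15 and 2.48. Cd74 had ratios of 1.13, 1.42 and 1.58, H2-DMa of 1.32, 1.51 and 1.75, Ciita of 1.47, 1.85 and 1.61 and H2-Oa of 0.672, 1.09 and 1.03, none of them called. Without the 9 cells rich in Ly6c2, H2-DMa and Ciita passed too, which made 6 higher and 2 lower. At resolution 1.2, at a limit of 5% mitochondrial UMIs or with a low-depth cluster of B cell genes counted among the B cells, H2-Aa and H2-Eb1 were no longer called, which left 2 higher, H2-Ab1 and H2-DMb1, and 2 lower. Among other genes of antigen presentation, a list of 29 of which 28 are in the matrix and 23 were tested here, 5 were higher and 2 lower. The higher ones were the transcription factors Irf8 and Spi1, the proteases Ctss and Ctsb and the costimulatory Cd86, and the lower ones were Pax5, the B lineage factor, at 15.8 against 474 CPM, and Irf4. Ctss, the protease that makes the last cut of the invariant chain, was at 942 against 499 CPM.

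The balance of restraint to editing can be read as H2-Oa and H2-Ob UMIs over those of H2-DMa, H2-DMb1 and H2-DMb2. This ratio compares UMIs and not molecules, since capture may differ between the genes and their mix differs between classes. It was 0.637, 0.665 and 0.707 in follicular-like B cells and 0.582, 0.634 and 0.674 in marginal zone-like cells. In conventional dendritic-like cells it was 0.182, 0.302 and 0.318, and 0.197, 0.302 and 0.316 without the cells rich in Ly6c2. In classical monocyte-like cells it was 0.0213, 0.0313 and 0.0656, where H2-DM UMIs numbered 875 and H2-O UMIs 33. Every library of the monocyte-like class thus lay below every library of the dendritic-like class, and that in turn below the follicular-like B cells. H2-Oa was at 6.16, 3.34 and 9.59 CPM and H2-Ob at 4.62, 11.7 and 17.6 CPM in classical monocyte-like cells, under the T-like background of 11.8, 12.5 and 17.4 CPM and of 17.4, 26.3 and 39.4 CPM in each library. H2-DMa, in contrast, was at 313, 284 and 284 CPM there and at 34.0, 34.5 and 47.3 CPM in T-like cells.

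The choice of H2-DM β chain separated the same classes. H2-DMb1 UMIs per H2-DMb2 UMI were 0.235, 0.275 and 0.254 in follicular-like B cells, 1.74, 1.28 and 1.61 in type 2 and 8.47, 10.1 and 5.92 in type 1 dendritic-like cells, where the values without the cells rich in Ly6c2 were 10.1, 10.1 and 6.44. In classical monocyte-like cells the ratio was 24.0, 15.9 and 9.13, on 7.71, 11.7 and 12.8 CPM of H2-DMb2 against 9.33, 14.4 and 16.6 CPM in T-like cells, that is, at background. B classes were therefore below 1 and type 1, type 2 and classical monocyte-like cells above 1 in each library. T-like cells, whose UMIs of these genes are background, gave 0.444, 0.441 and 0.423. The value of 1 marks equal UMIs and not equal molecules, since capture may differ between the 2 genes.

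**Figure D2:**
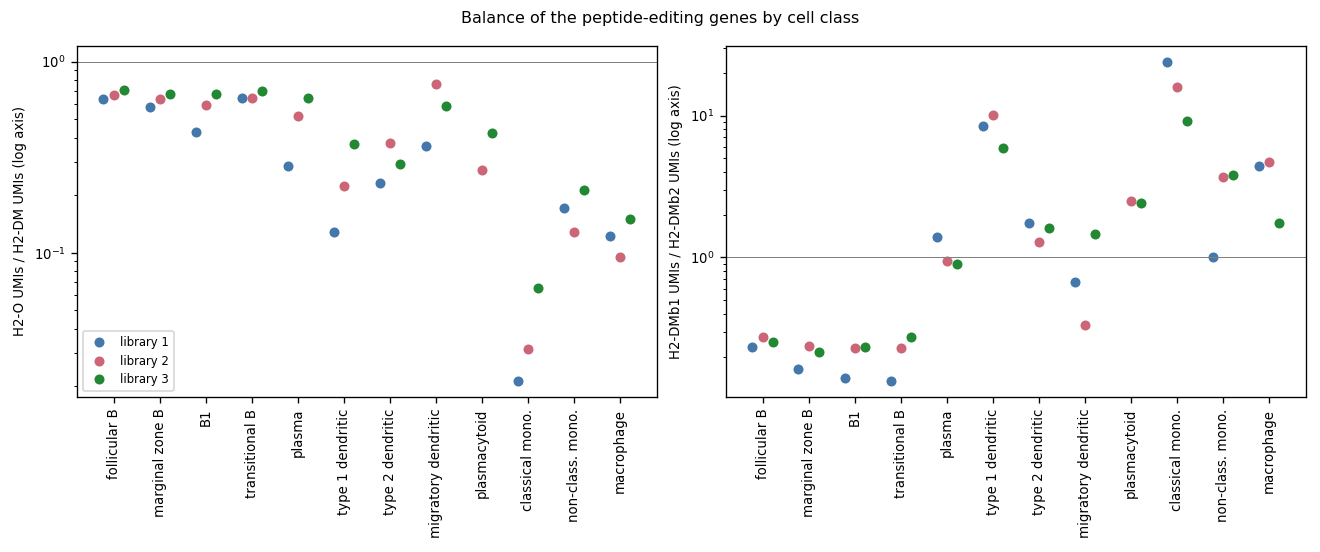
H2-O UMIs per H2-DM UMI (left) and H2-DMb1 UMIs per H2-DMb2 UMI (right) in 12 classes, both on log axes, with 1 point per library; libraries with fewer than 10 cells of a class are left out. H2-O to H2-DM falls from 0.637 to 0.707 in follicular-like B cells to 0.0213 to 0.0656 in classical monocyte-like cells, and H2-DMb1 to H2-DMb2 is below 1 in the B cell classes and 5.92 to 10.1 in type 1 dendritic-like cells.

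Type 1 and type 2 conventional dendritic-like cells, the subsets known for cross-presentation and for priming CD4 T cells, differed in 1 of the 10 genes. H2-DMb2 was at 51.6, 58.9 and 62.6 CPM in type 1 and at 281, 258 and 222 CPM in type 2 cells, with ratios of 0.184, 0.228 and 0.282 and no overlap of the libraries. No member was called higher, against 1.05% of 6491 genes higher and 2.26% lower. Ciita was at 253, 502 and 466 CPM in type 1 and 499.5, 696 and 593 CPM in type 2 cells, below in each library but with ratios of 0.722 and 0.786 in libraries 2 and 3, short of the call. H2-Oa was also below in each library, with ratios of 0.321, 0.542 and 0.822. In the wider list 2 genes were higher in type 1 cells, Irf8, the factor that type 1 cells depend on, and Cd86, and 2 lower, Ctss and Ctsh. Left without the 9 cells rich in Ly6c2, type 1 cells still had the single call, with H2-DMb2 ratios of 0.231, 0.228 and 0.262. After thinning to 1000 UMIs per cell the call was lost and 0 of the 10 genes were called.

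Plasmacytoid-like cells, the interferon-producing dendritic lineage, had less of 7 members than conventional dendritic-like cells in libraries 2 and 3, the ones with at least 10 such cells. H2-Eb1 was at 1485 and 1328 CPM against 6151.5 and 6102 CPM, H2-Ab1 at 2283 and 1983 CPM, H2-Aa at 2731.5 and 2565.5 CPM and Cd74 at 7466 and 6778 CPM. H2-DMb1, H2-Ob and Ciita were called lower too, making 7 of 10 against 2.67% of 7106 genes, with none higher against 5.21%. Thinning to 1000 UMIs left 4 of these calls, H2-Aa, H2-Ab1, H2-Eb1 and Cd74, and leaving out the cells rich in Ly6c2 left all 7. The median log2 ratio was -1.30 over the members and 0.34 over all genes tested. H2-Oa was not among them, at 182 and 218 CPM against 229 and 200.1 CPM, while H2-Ob had no UMI in library 2, where 3 counts would be 42.0 CPM, and 31.8 CPM in library 3, against 137 and 163 CPM. Over the 3 libraries H2-Ob had 8 UMIs in the 44 cells, 24.1 CPM (10.4 to 47.4), which is not above the 30.2 CPM of T-like cells and so is read as background. The 8.13 H2-Oa UMIs per H2-Ob UMI of the class, beside 0.501 in follicular-like B cells and 1.40 in conventional dendritic-like cells, therefore set H2-Oa against a background count. Of the wider list 5 genes were higher, Irf8, Irf1 and the proteases Ctsb, Ctsh and Ctsl, the last at 1301 against 4.89 CPM, and 3 lower, Spi1, March1 and Cd86. March1, the ubiquitin ligase that removes class II from the surface, was at 85.8 against 247 CPM.

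Migratory dendritic-like cells, the mature form known to move on to the T cell zone, paired less RNA of 4 members with the highest surface protein of any named class. H2-DMa was at 172.5, 119 and 128 CPM in the 11, 17 and 26 cells of the class, against 544, 591 and 626 CPM in conventional dendritic-like cells. H2-DMb1 had ratios of 0.188, 0.0872 and 0.421 and H2-Ab1 of 0.451, 0.340 and 0.454. Ciita had no UMI in library 1, where 3 counts would be 86.2 CPM, and 79.3 and 305 CPM in libraries 2 and 3, against 357, 604.5 and 539 CPM. These 4 genes were called lower and none higher, where 1.64% of 6726 genes were lower and 3.03% higher, and the median log2 ratio was -0.80 over the members and 0.47 over all genes. H2-Aa, H2-Eb1 and Cd74 had ratios of 0.513 to 0.835 over the 3 libraries and were not called, nor were H2-DMb2, H2-Oa and H2-Ob. I-A/I-E took 39.1%, 47.6% and 39.0% of the antibody counts of the class, against 14.7%, 15.8% and 18.7% in conventional dendritic-like cells, with a median of 659, 1390.0 and 897 counts per cell against 242, 341 and 376. The libraries did not overlap by either measure. Cd83, whose product keeps class II on the surface by opposing March1, was at 1121, 502 and 521 CPM, with ratios of 23.9, 10.8 and 4.54 to conventional dendritic-like cells. March1 was at 28.7, 92.5 and 40.1 CPM, with ratios of 0.411, 0.336 and 0.177. In all, 3 other genes of the list were higher, Cd83, Irf1 and Ctsh, and 2 lower, March1 and Irf8. The B cell markers summed to 144, 1229 and 586 CPM in this class, against 208, 214 and 360 CPM in conventional dendritic-like and 8445, 8278 and 7999 CPM in B-like cells, and their part in the values of libraries 2 and 3 was not tested. Without the cells rich in Ly6c2 the 4 calls were the same genes, the ratios of H2-Aa, H2-Eb1 and Cd74 were 0.513 to 0.730, with H2-Aa at 0.604 in library 1 in place of 0.784, and the antibody shares of conventional dendritic-like cells were 16.9%, 15.8% and 18.7%. The comparison was added after the classes had been seen.

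Among B cells the pathway varied little between the mature subsets as named here. The follicular-like class was itself mixed. A sub-cluster of 675 of its cells, led by Dtx1, Hes1 and Cr2, had the marginal zone list as its best, as had a sub-cluster of 324 cells. Both stayed in the follicular-like class, and their part in the comparison was not tested. In marginal zone-like cells, which answer blood-borne antigen, all 10 members were below follicular-like cells in each library, at ratios of 0.610 to 0.987, and none was called, against 0.814% of 6022 genes higher and 0.299% lower. The median log2 ratio was -0.24 over the members and -0.07 over all genes. B1-like cells, a mixed class whose sub-clusters differ between libraries and are described further on, had no member called either, against 3.21% of 6286 genes higher and 2.18% lower. There the libraries went different ways, with Ciita ratios of 0.466, 1.07 and 0.610 and H2-Ab1 ratios of 0.721, 1.37 and 0.929. The 270 activated B-like cells, marked by immediate early genes, lay in the same range, with H2-Aa at 3797, 3606 and 3074 CPM, Cd74 at 10773, 11421 and 9879 CPM, Ciita at 288, 305 and 306 CPM and surface I-A/I-E at 25.9%, 20.6% and 19.1% of antibody counts. Other genes of the list that were higher in B1-like cells were Cd80, at 37.9 against 1.46 CPM, Cd86 and Ctsb, and Ctsb alone was higher in marginal zone-like cells.

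Transitional-like B cells, the newly arrived stage, had less H2-Aa than follicular-like B cells, while no other member was called. It was at 1982, 2262 and 2253 CPM, against 3810.1, 3589.8 and 3453 CPM in follicular-like cells, and was the 1 member called lower, where 0.577% of 6243 genes were lower and 1.3% higher. H2-Ab1 had ratios of 0.636, 0.769 and 0.728, H2-Eb1 of 0.645, 0.678 and 0.714 and Cd74 of 0.919, 0.936 and 0.918. There were 3.10, 2.60 and 2.50 Cd74 UMIs per H2-Aa and H2-Ab1 UMI in these cells, against 1.92, 1.91 and 1.87 in follicular-like cells. Surface I-A/I-E was lower as well, at 9.04%, 10.1% and 10.3% of antibody counts against 19.1%, 18.2% and 17.1%, with no overlap. None of the 22 other listed genes tested was called in this comparison, which was also added after the classes had been seen. The call for H2-Aa was lost at the finer clustering of resolution 1.2 and when a ratio of at least 2 was asked for.

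Plasma-like cells, which secrete antibody, had less of all 10 members than B-like cells. Ciita was at 1.52, 12.9 and 6.51 CPM, against 243, 326 and 334 CPM. It was under the T-like 7.46, 9.02 and 10.6 CPM in libraries 1 and 3. In library 2 its interval of 6.18 to 23.7 CPM held the T-like value. H2-Aa was at 110, 318 and 232 CPM against 3312, 3507.5 and 3150 CPM. Cd74 was the least reduced, at 2529.5, 3679 and 3277 CPM against 11212, 11595 and 10433 CPM, and there were 4.85 Cd74 UMIs per H2-Aa and H2-Ab1 UMI in the pooled class, against 1.88 in B-like cells. All 10 were called lower, but so were 51.7% of 6184 genes, with 4.88% higher. Immunoglobulin genes took 58.1%, 54.5% and 46.9% of the UMIs of the class, which lowers the share left to every other gene. With CPM taken of the UMIs outside immunoglobulin genes, 9 members were still lower. Prdm1, whose product silences Ciita in plasma cells, was at 94.0 against 3.81 CPM and belonged to the markers that named the class. B cell markers summed to 1167 CPM, and their part in the residual levels was not tested.

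Monocyte-like cells, classical and non-classical together, were above T-like cells for 7 of the 8 members tested, among 23.2% of 6845 genes higher and 14.5% lower. These were H2-Aa, H2-Ab1, H2-Eb1, Cd74, H2-DMa, H2-DMb1 and Ciita. Ciita was at 58.5, 55.4 and 41.1 CPM against the T-like 7.46, 9.02 and 10.6 CPM. H2-Ob was not called, at 6.23, 11.5 and 18.0 CPM against 17.4, 26.3 and 39.4 CPM, and H2-DMb2 and H2-Oa were under the limit of 20 CPM in both classes. B cell markers summed to 93.4, 191.5 and 228.5 CPM in monocyte-like and 129.5, 231 and 256 CPM in T-like cells, and their part in the difference was not tested. Between monocyte subsets, H2-Ab1, H2-DMa and H2-DMb1 were lower in the non-classical class, 3 of 7 members tested against 2.25% of 6406 genes lower, with none higher against 3.36%. H2-DMb1 was at 19.5, 41.1 and 51.1 CPM there and at 185, 185 and 117 CPM in classical monocyte-like cells, and H2-DMa at 149, 93.5 and 113 CPM against 313, 284 and 284 CPM. The median log2 ratio was -0.56 over the members and 0.09 over all genes. After thinning to 1000 UMIs per cell none of the 3 calls was left.

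Class II RNA was concentrated in few monocyte-like cells. With a limit of 1% of a cell's UMIs for the 10 genes together, set after the distribution had been seen, 42 of 248 classical monocyte-like cells (16.9%) were at or above it and held 72.4% of the members' UMIs of the class. By library these were 15 of 80, 15 of 73 and 12 of 95 cells. Their surface I-A/I-E was 6.13%, 5.77% and 5.56% of antibody counts, against 1.82%, 2.64% and 2.14% in the other cells, so the protein, which took no part in the split, was higher in each library. Among dendritic cell markers, the high cells had 10 UMIs of Itgax, 34.0 CPM (16.3 to 62.5) against 5.06 CPM (2.19 to 9.98) in the other cells, and 5 of Cd209a, a type 2 marker, 17 CPM (5.52 to 39.7) against 1.27 CPM (0.153 to 4.57). They had 7 UMIs of Flt3 (23.8 against 27.2 CPM), 0 of Zbtb46 and 0 of Clec9a. Itgax and Cd209a thus moved with the members, and their part in the split was not tested. The B cell marker Cd79a was at 34.0 against 53.2 CPM. Csf1r, the receptor for the monocyte growth factor, was at 731 against 619 CPM and Ccr2 at 1441 against 1512 CPM, while Ly6c2 was at 574.5 against 1013 CPM. In the non-classical class 13 of 180 cells were at or above the limit. Of follicular-like B cells 98.9% were above it, and of T-like cells 0.377%. H2-Aa UMIs were seen in 50% of classical monocyte-like cells and in 26.3% after thinning to 1000 UMIs, above the 9.94% of thinned T-like cells.

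**Figure D3:**
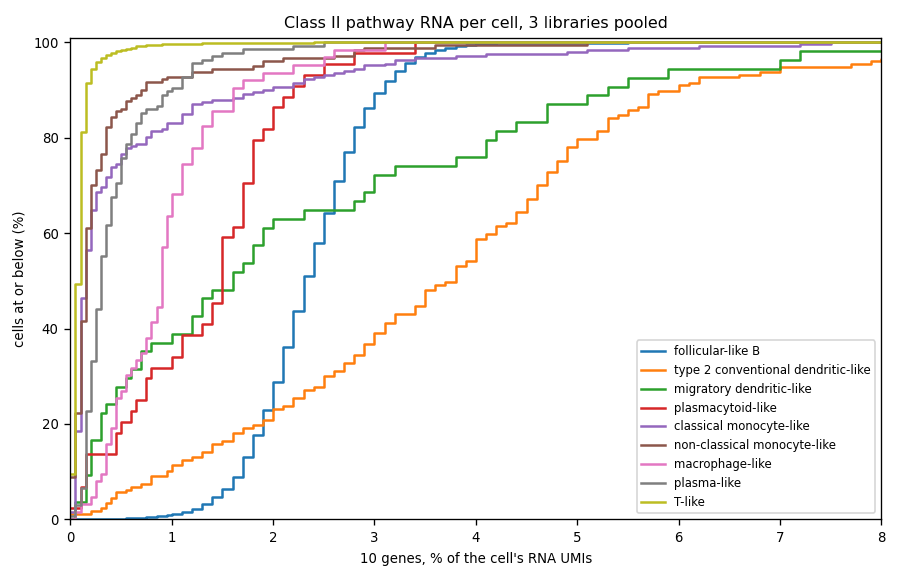
Cumulative share of cells (percent) by the share of a cell's RNA UMIs held by the 10 genes (percent), with 1 line per class and the 3 libraries pooled. Follicular-like B cells rise steeply between 1.42% and 3.26%, the 5th and 95th percentiles, whereas classical monocyte-like cells have a median of 0.107% and a tail of 16.9% of cells at 1% or more.

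Macrophage-like cells had more of the presenting chains and Cd74 than monocyte-like cells. H2-Aa was at 1360, 1959 and 1822 CPM against 692.5, 755.5 and 597 CPM, H2-Ab1 at 1118, 1348 and 1448 CPM against 701, 662 and 486 CPM, and H2-Eb1 at 950.3, 899 and 1239 CPM against 402, 454.5 and 325 CPM. With Cd74, at ratios of 1.71, 1.54 and 1.84, they made 4 of 9 members tested higher, against 5.21% of 7165 genes, and none lower, against 4.58%. No editor was called, though H2-DMb2 had ratios of 3.67, 4.41 and 4.59 and H2-Ob of 7.04, 2.94 and 2.48 at low counts, and both passed when the ratio alone was asked for, by means over cells and with the T-like level subtracted, which made 6 higher. H2-DMa ran in both directions, with ratios of 0.571, 1.51 and 0.610, and Ciita at 80.4, 42.4 and 74.7 CPM was not called against 58.5, 55.4 and 41.1 CPM. Of the wider list the endosomal proteases Ctsb, Ctsd, Ctsl and Lgmn, with Cd86 and Irf8, were higher and Spi1 lower. Ctsb, the most counted of them, was at 5791 against 1207 CPM and Ctsd at 1374 against 139 CPM. B cell markers summed to 1360, 865 and 1359 CPM in the 63 macrophage-like cells, 6 of 6 with UMIs, against 93.4, 191.5 and 228.5 CPM in monocyte-like cells. Cd79a was at 732 CPM in the 20 macrophage-like cells at 1% or more and at 179 CPM in the others, so B cell RNA moved with the members here, and its part in the result was not tested. With a ratio of at least 2 asked for none of the 4 calls was left, and after thinning to 1000 UMIs H2-Aa and H2-Ab1 were.

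Surface I-A/I-E broadly followed the RNA across the larger classes. Over the 31 sums of a class in a library with at least 50 cells, the Spearman correlation of the antibody share with the summed RNA was 0.828. No library of type 1, migratory, plasmacytoid-like or macrophage-like cells reached 50 cells, so these classes were not in it. Plasma-like cells entered with library 2 alone. The correlation is given as a description, since the points share libraries, depth and staining. T-like cells set the background at 1.91%, 2.19% and 1.92% of antibody counts and a pooled median of 23 counts per cell. Follicular-like B cells had 19.1%, 18.2% and 17.1% and marginal zone-like cells 22.4%, 19.0% and 17.4%, at pooled medians of 327.5 and 555 counts. Type 2 dendritic-like cells had 19.7%, 16.3% and 21.5% and type 1 cells 9.64%, 15.04% and 14.8%, or 12.8%, 15.04% and 14.7% without the cells rich in Ly6c2. Classical monocyte-like cells, at 2.51%, 3.26% and 2.61% and a pooled median of 34 counts, were just above T-like cells in each library. Several classes stood off this order. Plasmacytoid-like cells took 2.87% and 5.09% in libraries 2 and 3 with 1.499% and 1.36% of RNA UMIs, while plasma-like cells took 7.76%, 15.1% and 15.2% with 0.306%, 0.511% and 0.438%. By count per cell plasma-like cells, at a pooled median of 108.5, were below the 327.5 of follicular-like B cells and close to the 99 of plasmacytoid-like cells, and a share also depends on the other antibodies a cell binds. Immunoglobulin genes took 53.9% of the RNA UMIs of plasma-like cells, which lowers the RNA share of the 10 genes there. Of the 136 plasma-like cells 13 were at 1% or more of RNA, with I-A/I-E at 32.0% of antibody counts against 10.2% in the others.

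**Figure D4:**
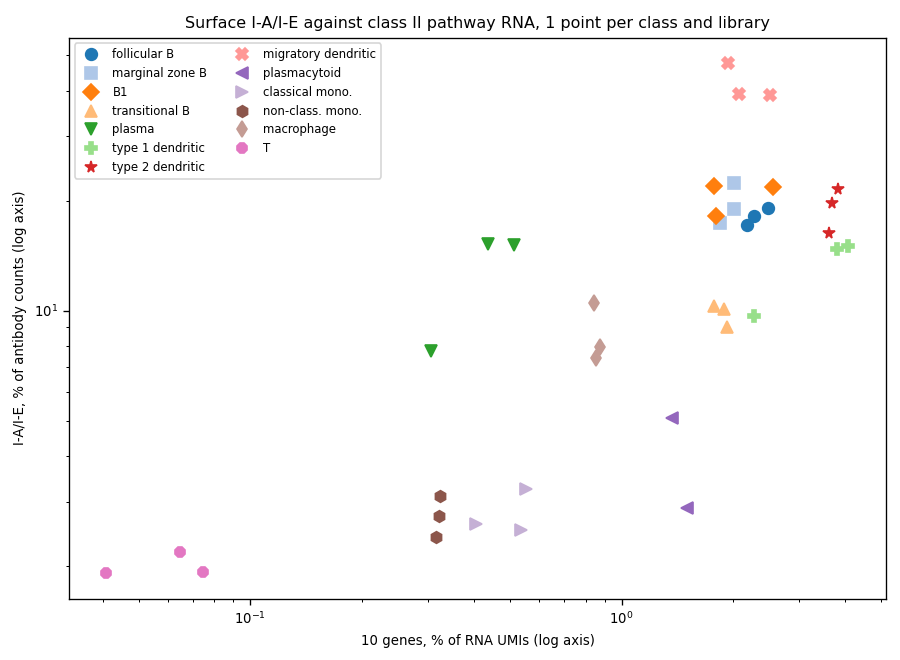
I-A/I-E as a share of a class's antibody counts (percent, log axis) against the 10 genes as a share of its RNA UMIs (percent, log axis), with 1 point per class and library of at least 10 cells. Migratory dendritic-like cells lie above all others at 39.0% to 47.6% of antibody counts. Plasma-like cells lie far above classical monocyte-like cells at a similar share of RNA UMIs, a share that immunoglobulin genes lower in plasma-like cells.

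Within follicular-like B cells, RNA was set side by side for bins of cells ranked by surface protein. The ranking itself sets the bins apart in protein, so the size of that gap cannot be weighed against the RNA difference. No measure over single cells was computed. When the cells of library 1 were ranked by I-A/I-E share into 4 equal bins, the median share of the lowest and the highest bin was 8.91% and 33.6%, while H2-Aa went from 3477 to 3945 CPM and H2-Ab1 from 2580.2 to 3107 CPM. In library 2 the share went from 8.16% to 28.9% and H2-Aa from 3242 to 3596 CPM, and in library 3 the share went from 8.07% to 26.8% and H2-Aa from 3274 to 3443.5 CPM. In every library the lowest bin also had the lowest H2-Aa. The rise was not steady, since H2-Aa was highest in the third bin of libraries 2 and 3, at 3754 and 3559 CPM. H2-Ob alone among the members was lower in the highest than in the lowest bin of every library. It went from 430 to 396 CPM in library 1, from 444 to 375 CPM in library 2 and from 481 to 433 CPM in library 3. This fall was not steady in libraries 1 and 3. In library 1 H2-Ob was highest in the second bin, at 499.6 CPM, and lowest in the third, at 336.9 CPM. In library 3 it was lowest in the third bin, at 405.1 CPM. No intervals were computed for the bins, so whether these steps exceed counting error was not tested. Median RNA depth rose with the bins too, from 2963 to 3506 UMIs in library 1, and its part was not tested.

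Libraries could not be compared as groups, but their values within a class were set side by side, with a member called where the highest library was at least 1.5 times the lowest and their intervals were apart. In follicular-like and marginal zone-like B cells, type 2 dendritic-like, non-classical monocyte-like and macrophage-like cells no member was called, against 2.39%, 4.24%, 7.61%, 2.52% and 4.72% of all genes tested in these classes. The follicular-like class was not alike in each library. Of its 894 cells in library 1, 499 lay in a sub-cluster that held 12 and 15 cells of libraries 2 and 3. That sub-cluster was led by the haemoglobin genes Hbb-bs, Hbb-bt, Hba-a1 and Hba-a2, then S100a8 and S100a9. Its part in the library 1 values was not tested. In classical monocyte-like cells H2-DMb1 alone was called, against 7.8%. In type 1 dendritic-like cells 8 members were called, against 15% of genes, with H2-Aa at 3888 CPM in library 1 and 7237 and 6647 CPM in libraries 2 and 3. Without the cells rich in Ly6c2 that value became 6464 CPM and 1 call was left, H2-DMb1, against 5.64% of genes, so the low values of library 1 came with those 8 cells.

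In B1-like cells 5 members were called, H2-Ab1, H2-DMb1, H2-Oa, H2-Ob and Ciita, against 20.1% of genes, all highest in library 2 and lowest in library 1. Ciita was at 144, 361.5 and 226 CPM and H2-Oa at 111, 226 and 146 CPM. The class was made of different cells in each library. Sub-cluster 0, led by Itgax and Ndnf, held 49, 307 and 9 cells, sub-cluster 1, led by Cr2 and Jchain, 74, 127 and 67 cells, and sub-cluster 2, led by Tppp3 and Gng13, 216, 4 and 1 cells, so that the last may be library 1 rather than a type. Within library 1, Ciita was at 333 CPM (268 to 409) in sub-cluster 0, 206 CPM (166 to 253) in sub-cluster 1 and 87.9 CPM (73.0 to 105) in sub-cluster 2. Cd74 was at 12685.5, 11098 and 7529.5 CPM and H2-Ab1 at 3509, 2633 and 1673 CPM in the same order. Surface I-A/I-E differed less, at 24.9%, 23.2% and 20.7% of antibody counts. In sub-cluster 1 alone none of the 10 members was called between libraries, against 4.77% of genes. The name B1-like fits these cells unevenly, since Cd5, a marker of B-1a cells, was at 3.66, 11.4 and 2.88 CPM in sub-clusters 0, 1 and 2 of library 1, while Bhlhe41 was at 146, 137 and 246 CPM. In library 2, sub-cluster 0 had Itgax at 98.7 CPM (83.1 to 116) and Tbx21 at 89.0 CPM (74.2 to 106), genes known from age-associated B cells, against 3.66 and 25.6 CPM in that sub-cluster of library 1.

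**Figure D5:**
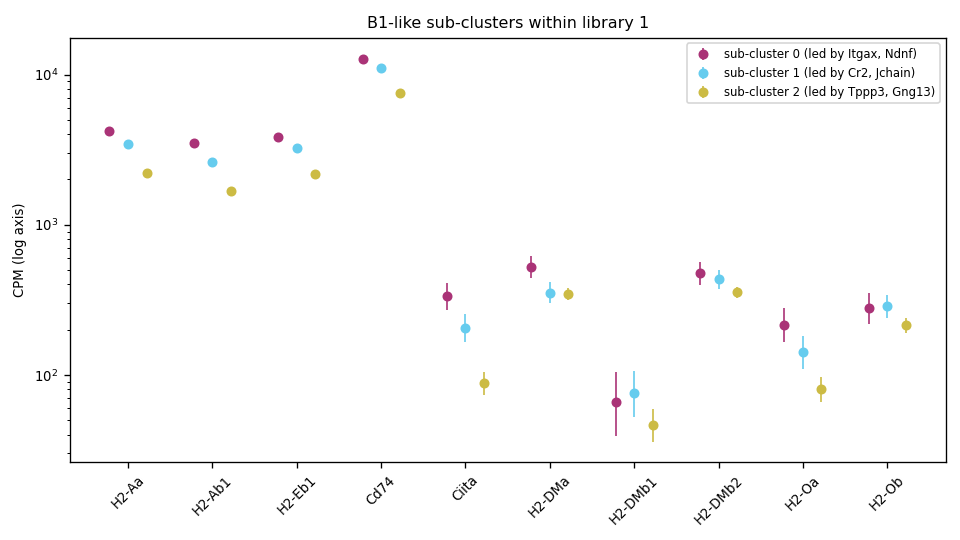
Level of each of the 10 genes (CPM, log axis) in the 3 sub-clusters of B1-like cells of library 1, of 49, 74 and 216 cells, with bars for exact Poisson 95% intervals. Sub-cluster 2 has the lowest point for each of the 10 genes, with Ciita at 87.9 CPM against 333 and 206 CPM. Its intervals for H2-DMa, H2-DMb1, H2-DMb2 and H2-Ob overlap those of sub-cluster 1, with H2-DMa at 344.5 against 352.5 CPM.

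Across the larger classes, Ciita and the presenting chains moved closely together, and the B cell editors formed a second pattern. No library of type 1, migratory, plasmacytoid-like or macrophage-like cells reached the limit of 50 cells, so these classes took no part. Over the 31 sums of a class in a library, each with at least 50 cells, and 6640 genes of at least 50 CPM in a sum, the genes with the highest correlation of log2(CPM + 1) with Ciita were H2-Aa (0.972), H2-Eb1 (0.961) and H2-Ab1 (0.959). For H2-Ob they were H2-DMb2 (0.969), Siglecg (0.961), a sialic acid receptor of B cells, and Spib (0.955), an ETS factor of B and plasmacytoid cells. Outside the set, the sum of the members was most like Vav2 (0.951), Cd40 (0.940), Wdfy4 (0.928) and Bcl11a (0.923). Among the members themselves the correlation with the sum ran from 0.798 for H2-Ob to 0.997 for Cd74 and H2-Ab1. The sums come from 3 libraries and are dominated by the contrast of B cells with other classes, so these values are descriptions.

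H2-Eb2, the β chain gene beside H2-Eb1, had a pattern of its own at low level. It was at 149 CPM (104 to 207) in migratory dendritic-like, 65.0 CPM (61.3 to 68.8) in follicular-like B, 41.4 CPM (30.6 to 54.7) in type 2 and 7.34 CPM (3.17 to 14.5) in type 1 dendritic-like cells, against 1.53 CPM (1.10 to 2.07) in T-like cells. In this gene the migratory class was above the follicular-like B cells and type 1 below type 2, with intervals apart.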

How the data were processed

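Per the labels and methods, splenocytes of 3 groups were stained with TotalSeq-B antibodies and captured with the 10x 3′ v3.1 kit, and the authors aligned and counted reads with Cell Ranger (5.0.1 in the file header) on mm10, a name for GRCm38. The deposited values are raw counts, whole UMIs per gene or antibody and cell, of all 3 libraries in 1 matrix. The authors' later steps in Seurat are not in the file.

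From these counts, cells with 300 to 5000 genes and at most 10% mitochondrial UMIs were kept and scaled to 10000 UMIs. They were clustered on 2000 variable genes without the members, with 20 components and Louvain resolution 0.8. The components came from scikit-learn 1.9.0 and the Louvain step from igraph 0.11.9. Clusters were named from fixed marker lists. UMIs were summed per class and library. A gene was tested at 20 CPM or more in either class, and counts under 3 were set to 3. No p-value was computed. Libraries held 20032690, 32270524 and 35697547 kept RNA UMIs. Scrublet, run in scanpy 1.11.5, marked 504 cells (2.5%), left out only in an alternative. For thinning to 1000 UMIs, 1589 shallower cells were left out. The members and lists were chosen with earlier results of these data known. All 10 members are named, with up to 6 called genes of the list of other antigen presentation genes per comparison.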

Additional observations from a re-analysis of the deposited data

How the results depend on the processing

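Of 187 alternative values, 165 stayed within 1.5 times the main count or 1 SD of the main ratio and 22 did not, and no direction was reversed. A ratio of at least 2 left 3 members called between conventional dendritic-like and B-like cells (6 at 1.5), 0 between macrophage-like and monocyte-like cells (4), 0 between transitional-like and follicular-like B cells (1) and 5 between libraries (14 of 80). Thinning to 1000 UMIs left 2 in macrophage-like cells, 0 between type 1 and type 2 cells (1), 4 in plasmacytoid-like cells (7) and 0 between monocyte classes (3), with fewer UMIs by construction. Means over cells gave 2 between type 1 and type 2, 5 between monocyte classes and 23 between libraries. Subtracting the T-like level gave 5 between monocyte classes. For transitional-like cells, resolution 1.2 gave 0 and class II genes among the variable genes gave 3, a setting that formed no macrophage-like class and so gave no value there. Leaving out 1 library gave 1 to 2 calls between type 1 and type 2 (2 without library 3), 0 to 1 in B1-like cells (1 without library 2), 3 to 5 between monocyte classes (5 without library 3) and 5 to 11 between libraries (5 without library 1). Between libraries, 7 calls remained in number without the type 1 cells rich in Ly6c2 and 9 with B1-like sub-cluster 1 alone, both chosen after seeing the data. The I-A/I-E ratio of follicular-like B to T-like cells was 8.84 by share of counts, 14.24 by median count and 11.94 by centred log ratio. Apart from the effect of thinning, the causes were not tested.

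No paired analysis was possible because no barcode suffix is tied to a group and each group has a single replicate number. Class ratios were taken within each library, but no test over the 3 libraries was made. Depth limits the rare classes most: 3 counts were 86.2 CPM in migratory dendritic-like cells of library 1 and 42.0 CPM in plasmacytoid-like cells of library 2, so absence of Ciita or H2-Ob there cannot be told from a low level.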

Other observations

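A cluster of 2838 cells with B cell genes stayed unnamed for its low depth, a median of 1177 UMIs. It carried the pathway at levels like those of B cells or above. Ciita was at 560, 709.7 and 645 CPM in its 391, 1008 and 1439 cells of libraries 1, 2 and 3, against 310, 337 and 370.1 CPM in follicular-like B cells, and H2-DMb1 at 188, 205.5 and 186 CPM against 106, 116 and 108.5 CPM. H2-Ab1 was at 4305, 3891 and 3411 CPM, while H2-DMa, at 456, 425 and 380 CPM, was within 1.1 times the follicular-like value in each library. Surface I-A/I-E was 16.6%, 15.2% and 13.7% of antibody counts, below the follicular-like 19.1%, 18.2% and 17.1%. Fcer2a, a follicular marker, was at 1022.5 and 1153 CPM in its cells of libraries 2 and 3. The leading genes of the cluster, however, were Mpo, Elane and Prtn3, known from granulocyte precursors. Hba-a1 was at 626, 62.7 and 98.0 CPM and S100a8 at 650, 51.2 and 78.5 CPM in its cells of libraries 1, 2 and 3. The part of such RNA in the levels was not tested.

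Neutrophil-like cells gave H2-Aa at 214, 538 and 538 CPM, above T-like cells in each library, with B cell markers summing to 312, 1393 and 1477 CPM against 129.5, 231 and 256 CPM. Of these cells 5.75% were at 1% or more of their RNA UMIs and held 66.7% of the members' UMIs of the class. The part of those markers in the value was not tested.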
